A study of Mus musculus with 16 samples.

Results

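A LINE1 copy was taken as a run of CpG sites of the same strand, no more than 200 bp from one to the next, with at least 10 calls at every site in all 16 libraries. A call is a read that gives C (methylated) or T (unmethylated after bisulfite treatment) at a CpG. Of 753 such copies, 516 had one and the same distance from their first to their last CpG, called the common span here. The copies described here held at least 3 sites and reached over at most 200 bp, but did not have the common span. They numbered 158 of 753 copies and held 1823 of the 10185 CpG sites tested. Short copies, with spans of 84 to 141 bp, made up 110 copies and 1229 sites. Long copies, with spans of 143 to 164 bp, made up 48 copies and 594 sites. The rule used coverage and position and no methylation value. The other 79 runs were longer than 200 bp and began at 313 bp, and the longest member had 164 bp, so no run lay close to the upper limit of the rule. "Single" held for most but not all of the 158 copies: 41 short and 13 long copies had another run on the same strand within 1000 bp.

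LINE1 elements are retrotransposons that fill much of the mouse genome, and the CpGs of their promoter region are normally methylated, which keeps the elements silent. After DNA replication the new strand lacks methyl groups. UHRF1 recognises the hemimethylated CpGs, attaches ubiquitin to histone H3 through its RING domain, and so brings in the methyltransferase DNMT1.

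DNA from embryonic stem cells of the mouse was treated with bisulfite, and a LINE1 amplicon was made from it by PCR and sequenced. All cells were J1 cells (strain 129S4/SvJae), kept in medium with serum, 2i and LIF. The 4 genotypes, with 4 libraries each, were wild-type cells (wtJ1), a knockout of Uhrf1 (Uhrf1 KO), and cells with the Uhrf1 changes H730A or F46A. As background, H730A lies in the RING domain and F46A in the ubiquitin-like (UBL) domain of the protein. The series calls the libraries biological quadruplicates. Whether those of a genotype came from 1 clone or several, and whether the point mutants carry the change on both alleles, is not stated in the sources at hand, so p-values measure the spread between these libraries.

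Each library held 998982 to 1287040 CpG calls over all sites, of which 73563 to 97674 fell on the short and long copies. These copies took 8.45% of the calls at tested sites. They were covered more thinly than the common-span copies: the median copy had 27.7 calls per CpG and library among short copies, 27.5 among long copies and 68.6 among common-span copies. A single copy held 5.84% of all short calls and another 11.6% of all long calls. Reads came from PCR and carried no molecular identifiers, so intervals cover counting error only. Replicates 3 and 4 of wtJ1 did not differ beyond sampling noise at the 0.05 level by chi-square in their coverage over copies (p = 0.272), their calls over copies (p = 0.145) and their calls over amplicon positions (p = 0.0698). They may be the same library deposited more than once, though tests that find no difference cannot show this. They were averaged into 1 sample for means and SDs. Replicates 1 and 2 did not differ beyond it over copies but differed over positions (chi-square p = 0.00592). The tests across copies and sites kept the 4 libraries as deposited. With replicates 3 and 4 summed into 1, the same tests called 158 of the 158 copies in each mutant, and 1580 (Uhrf1 KO), 1488 (H730A) and 1558 (F46A) of their sites. LINE1 copies are near-identical in sequence, so the assignment of reads to 1 copy or host gene is uncertain.

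To see which CpGs set the atypical spans, every copy was placed on an amplicon template of 15 CpG positions, counted in bp from 1 at the most upstream one, along the strand of the calls. The positions were 1, 8, 18, 25, 29, 34, 49, 53, 65, 86, 90, 103, 110, 113 and 150. The common span is the distance from position 8 to position 150. Among short copies, 56 started after position 8, 43 ended before position 150 and 11 did both. The commonest short span was 105 bp, in 37 copies that ran from position 8 to 113, followed by 125 bp in 22 copies and 132 bp in 19 copies. In 9 copies the span was 141 bp, 1 bp under the common span. The CpG at 1 end of these copies lay 1 bp inside position 8 or 150. Short copies held 9 to 13 CpGs in 58 different patterns, and the commonest pattern was shared by 18 copies.

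Many short copies ended where coverage ran out. In 66 short copies the missing end CpG was listed in the files but had fewer than 10 calls in at least 1 library. In 40 copies no library listed a CpG at the missing end position, and 4 copies had 1 end of each kind. The 40 include the copies of 141 bp, whose end CpG was shifted by 1 bp rather than absent. Position 150 was missing from 54 short copies; 46 of these listed it below the coverage minimum, with a median of 5 calls in the lowest library, and 8 did not list it. Position 8 was listed below the minimum in 31 short copies and not listed in 36. Short copies are thus a mixed class, in which the missing end is in part a matter of thin coverage.

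Long copies owed their span mainly to 1 extra CpG upstream. In 30 of 48 the first CpG was position 1, 7 bp before position 8, which gave a span of 149 bp. Position 1 was in 0 of 516 common-span copies, which is fixed by the rule, and in 1 short copy. A further 7 long copies had an extra CpG after position 150, and 6 had a last CpG shifted by 1 or 2 bp. The remaining 5 started at another CpG upstream of position 8. In 2 of these 5 the CpGs after the first were displaced too. At chr6:118215687 the first CpG lay at -11, followed by 10, 15 and 30, spaced as positions 8, 29, 34 and 49. In a copy of 144 bp inside Diaph2 the first CpG was followed by 16, 23, 27 and 32, spaced as positions 18, 25, 29 and 34. In spacing, the first CpG of both copies matches position 8, which both lack. A single pattern of 12 CpGs (positions 1, 8, 18, 29, 53, 65, 86, 90, 103, 110, 113 and 150) was shared by 26 long copies on 10 chromosomes. It lacks positions 25, 34 and 49. Of all long copies 31.2% held position 25, 33.3% held position 34 and 37.5% held position 49, against 63.6%, 88.2% and 87.4% of the common-span copies. Position 18 went the other way and was held by 72.9% of long copies, 37.3% of short copies and 30.2% of common-span copies. These shares describe the CpGs in each class and were not tested.

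**Figure D1:**
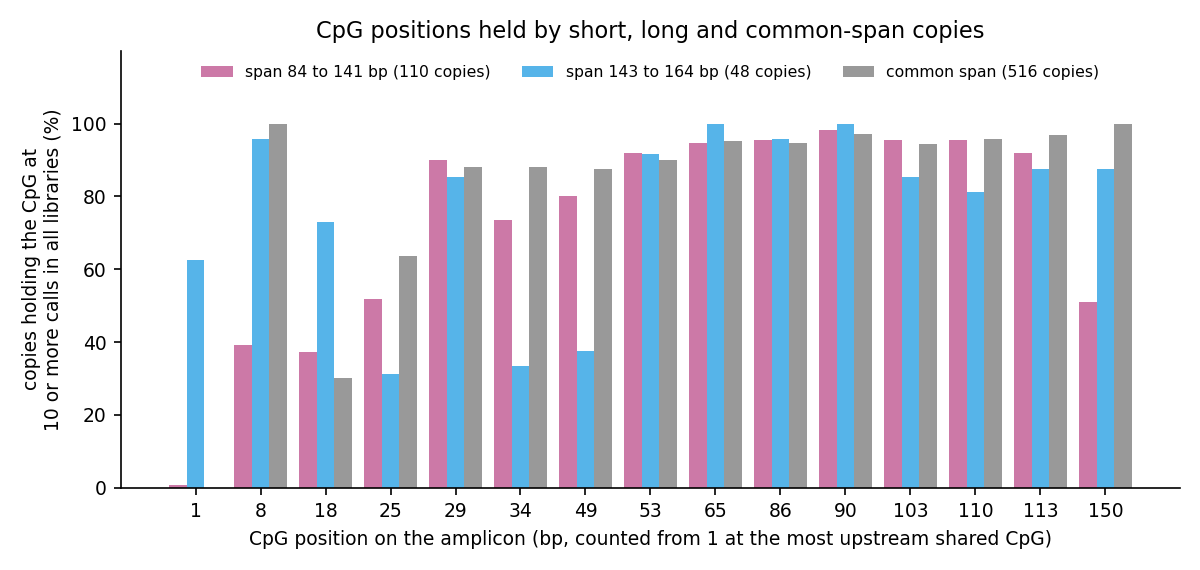
Bars give the percentage of copies (vertical axis) that hold each amplicon CpG position (horizontal axis, bp) at 10 or more calls in all 16 libraries, for 110 short, 48 long and 516 common-span copies. Short copies lack a CpG at position 8 or 150 itself (39.1% hold position 8 and 50.9% hold position 150). An end CpG shifted by 1 bp counts as lacking here. Long copies hold position 1 in 62.5% and positions 25, 34 and 49 in 31.2 to 37.5%.

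When copies were set against the gene spans that RefSeq gives for GRCm38.p6 (mm10), 52 of the 158 copies lay inside an annotated gene and 106 outside. The share was 29.1% of short copies (32), 41.7% of long copies (20) and 26.6% of common-span copies (137). The X chromosome held 11 short and 6 long copies. Whether a copy overlapped an exon, intron or UTR was not annotated here.

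Methylation of both classes was lower in every mutant genotype. The level of a library is the percentage of C among its calls summed over the sites of a class. In the 4 wtJ1 libraries short copies stood at 24.6, 24.3, 24.6 and 24.1%, and in Uhrf1 KO at 5.25, 5.17, 5.34 and 5.06%. The 4 H730A libraries gave 7.41, 7.89, 8.84 and 6.84%, and the 4 F46A libraries 5.89, 5.19, 4.44 and 6.53%. Every library of a mutant lay far below every wtJ1 library. The mean of wtJ1 was 24.4% ± 0.191 (SD, n = 3). Those of Uhrf1 KO, H730A and F46A were 5.21% ± 0.117, 7.74% ± 0.845 and 5.51% ± 0.903 (SD, n = 4). Uhrf1 KO thus kept 21.3% of the wtJ1 level of short copies, H730A 31.7% and F46A 22.6%.

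Long copies were lower in all 4 genotypes. Their wtJ1 libraries gave 21.7, 20.8, 21.3 and 21.1%, and those of Uhrf1 KO 4.24, 4.20, 4.29 and 4.25%. The H730A libraries gave 5.78, 6.66, 7.68 and 5.31%, and the F46A libraries 4.47, 4.04, 3.43 and 5.82%. The 4 libraries of Uhrf1 KO lay close together, and those of both point mutants were spread widely. The wtJ1 mean was 21.2% ± 0.448 (SD, n = 3), and the mutants, in the same order as above, had 4.25% ± 0.0401, 6.36% ± 1.04 and 4.44% ± 1.01 (SD, n = 4). Of the wtJ1 level of long copies Uhrf1 KO kept 20.0%, H730A 29.9% and F46A 20.9%, close to the shares kept by short copies.

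**Figure D2:**
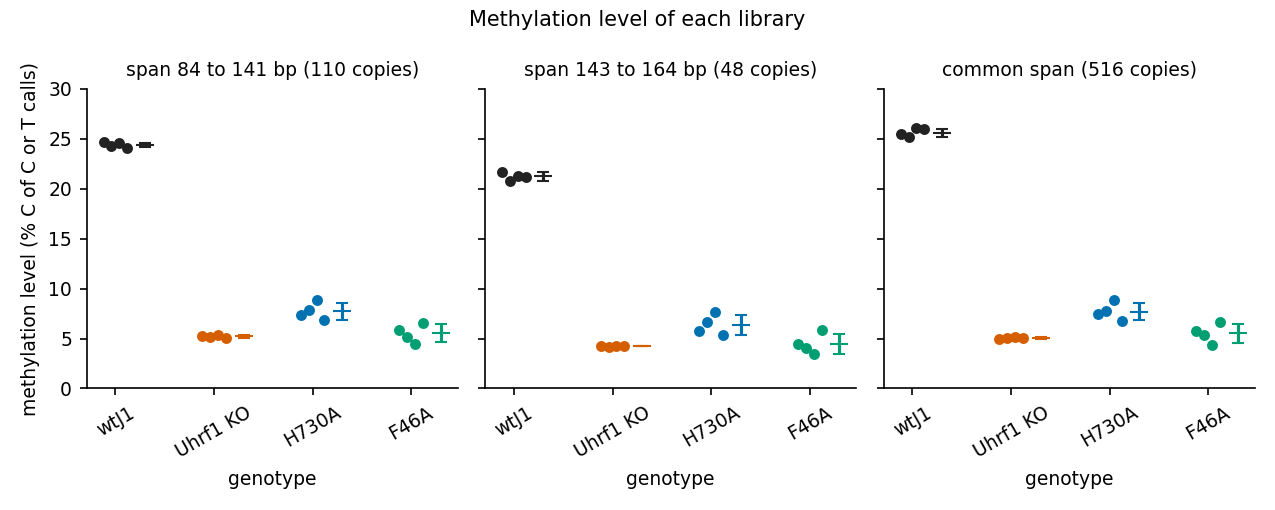
Methylation level (vertical axis, % C of C or T calls) of each of the 4 libraries of 4 genotypes (horizontal axis) for short copies, long copies and common-span copies. Points are libraries, and the dash with its bar is the mean and SD. In all 3 panels the mutants lie below wtJ1, and the libraries of H730A lie above those of Uhrf1 KO.

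The order of the mutants was the same in both classes. No H730A library overlapped Uhrf1 KO; H730A was higher by 2.54 points on average in short copies and by 2.11 points in long copies. The libraries of F46A overlapped those of Uhrf1 KO in both classes, with mean differences of 0.307 and 0.192 points. All 4 F46A libraries lay below all H730A libraries in short copies (a difference of -2.23 points), and 3 of the 4 did in long copies (-1.92 points). In long copies F46A replicate 4, at 5.82%, lay above replicates 1 and 4 of H730A, and without it the groups did not overlap. These pooled levels are descriptions with no test, since the copies were chosen as a class.

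Per copy, the comparison with wtJ1 left no exception. With calls summed over a copy, all 110 short and all 48 long copies were lower in each of the 3 mutants (quasi-binomial model, dispersion moderated by limma, Benjamini-Hochberg adjusted p under 0.05 over 753 copies). The share over all copies tested was 100.0% lower in each comparison, so the counts say nothing particular about the atypical spans. The median difference from wtJ1 was -19.8, -17.0 and -19.5 points for short copies and -18.5, -15.7 and -18.3 points for long copies in Uhrf1 KO, H730A and F46A. Over all 753 copies it was -20.3, -17.6 and -19.7 points. The 3 comparisons share the wtJ1 libraries.

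The levels of single copies spread widely in wtJ1. Short copies ran from 6.38 to 49.8% with a median of 24.7%, and their middle 50% lay between 19.4 and 29.8%. Long copies ran from 13.2 to 38.1% with a median of 22.6%. Copies of the common span had a median of 25.6% and a narrower middle range, from 22.8 to 28.3%, but they were also read more deeply. In Uhrf1 KO the spread closed to 1.62 to 10.81% in short copies and 2.72 to 10.1% in long copies. The medians in Uhrf1 KO, H730A and F46A were 5.19, 7.75 and 5.43% for short copies and 4.40, 7.06 and 4.87% for long copies.

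**Figure D3:**
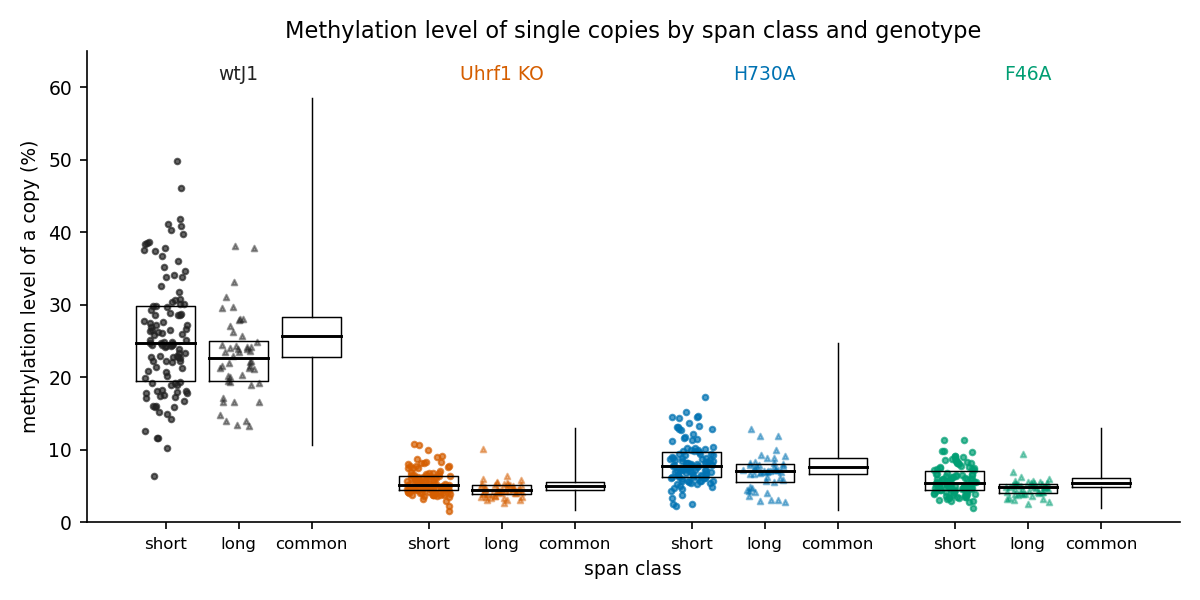
Methylation level of single copies (vertical axis, mean over the libraries of a genotype, %) by span class within each genotype (horizontal axis). Points are the 110 short (circles) and 48 long copies (triangles), boxes give the quartiles and median, and for 516 common-span copies the box has whiskers to the lowest and highest copy. Levels spread over 6.38 to 49.8% in short copies of wtJ1 and fall to a narrow band in the mutants.

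The highest of the short copies in wtJ1 was chr3:8451629-8451770 (mm10, minus strand), of 141 bp and outside genes, with 392 to 703 calls per library. Its wtJ1 libraries gave 52.8, 46.3, 48.8 and 51.6%, and those of Uhrf1 KO 5.53, 9.88, 6.49 and 5.18%. H730A gave 17.9, 16.8, 16.8 and 17.4%, and F46A 7.24, 11.3, 6.70 and 7.35%. H730A lay above both other mutants without overlap. Among short copies with at least 100 calls in every library compared, it had the largest difference from wtJ1 in Uhrf1 KO, of -42.7 points (quasi-binomial model, adjusted p = 3.64e-23). The same was true of F46A, where the difference was -41.6 points with an adjusted p of 1.78e-25 in this model. The largest fall in H730A was in another copy, chr4:40597140-40597261 (121 bp), from 46.1% ± 6.37 (SD, n = 3) to 9.35% ± 2.41 (SD, n = 4).

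The short copies with the most calls were closer to the class mean. The deepest, chr4:122713556-122713661 (mm10, minus strand, 105 bp, outside genes), had 3031 to 4199 calls per library. It stood at 24.5% ± 0.451 (SD, n = 3) in wtJ1, while Uhrf1 KO had 4.78% ± 0.599, H730A 8.51% ± 0.716 and F46A 5.97% ± 0.965 (SD, n = 4). The next 3 by calls, chr4:90979787-90979892, chr13:48297187-48297328 and chr16:69208847-69208972, stood at 22.6, 19.0 and 18.9% in wtJ1. All 4 lay outside genes. The shortest copy, chr7:69435116-69435200 of 84 bp, fell from 21.3% ± 4.95 (SD, n = 3) in wtJ1 to 5.02% ± 0.962 (SD, n = 4) in Uhrf1 KO.

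At the other end stood chrX:169159932-169160020 (mm10, plus strand, 88 bp), inside the gene Arhgap6. Its wtJ1 libraries gave only 3.50, 7.20, 8.18 and 8.73%. The means of Uhrf1 KO, H730A and F46A were 1.62% ± 1.43, 2.58% ± 0.785 and 1.92% ± 0.704 (SD, n = 4). The first wtJ1 library lay below the highest H730A library, and the copy still passed in each comparison (quasi-binomial model, adjusted p = 0.000694, 0.00736 and 0.00548).

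Among long copies the deepest was also the longest. The copy chr12:38074773-38074937 (mm10, plus strand, 164 bp) lies inside Dgkb, which encodes a diacylglycerol kinase, and had 2392 to 3702 calls per library. It was weakly methylated, with 14.4, 11.2, 13.7 and 15.4% in wtJ1. Uhrf1 KO was at 3.10% ± 0.362, H730A at 4.09% ± 1.59 and F46A at 3.13% ± 0.753 (SD, n = 4). Without this copy the wtJ1 level of all long copies was 22.2%. A second deep copy, chr5:20127364-20127509 (145 bp) in Magi2, a gene for a synaptic scaffold protein, fell from 17.1% ± 1.09 (SD, n = 3) in wtJ1 to 3.41% ± 0.633 (SD, n = 4) in Uhrf1 KO. The copy chr1:11626797-11626946 in A830018L16Rik, which held all 15 template positions, fell from 14.9% ± 0.554 (SD, n = 3) in wtJ1 to 3.64% ± 0.334 (SD, n = 4) in Uhrf1 KO. The smallest fall in Uhrf1 KO among long copies was by 8.99 points, in chr14:13694446-13694591. The highest long copies were chr10:112587346-112587493 (147 bp), with a wtJ1 level of 38.1% ± 5.18 (SD, n = 3), and chr13:106650317-106650471 (154 bp), at 37.8% ± 2.04 (SD, n = 3). In Uhrf1 KO the latter fell by 32.6 points, the largest fall of the long copies, to 4.65% ± 2.15 (SD, n = 4; quasi-binomial model, adjusted p = 3.07e-14).

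H730A retained more methylation than Uhrf1 KO in part of the copies. Of 110 short copies 30 were higher and 1 was lower in H730A, and of 48 long copies 18 were higher and 0 lower (quasi-binomial model, adjusted p under 0.05). Over all 753 copies 59.1% were higher and 0.398% lower, and among common-span copies 65.7% were higher. The median difference was 2.33 points in short, 2.50 in long and 2.60 in common-span copies. The lower share of calls stood beside thinner coverage and, over all depths, a similar median difference. Among short and long copies together, 3 of 33 with fewer than 20 calls per CpG and library were higher, 17 of 62 with 20 to 40, 18 of 46 with 40 to 80, and 10 of 17 with 80 or more. For common-span copies the counts in the same bins were 4 of 9, 33 of 89, 140 of 228 and 162 of 190. In each bin the share was lower for the atypical spans, a difference that was not tested, and the bins of 9 and 17 copies are thin. Median differences in these bins were 2.57, 2.69, 1.65 and 2.94 points for the atypical spans. Common-span copies had 3.45, 3.06, 2.51 and 2.57 points. At equal depth the medians were thus smaller for the atypical spans in all bins but the deepest. Fisher's exact test of the summed calls, which leaves out the spread between libraries, called 108 of the 158 copies.

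**Figure D4:**
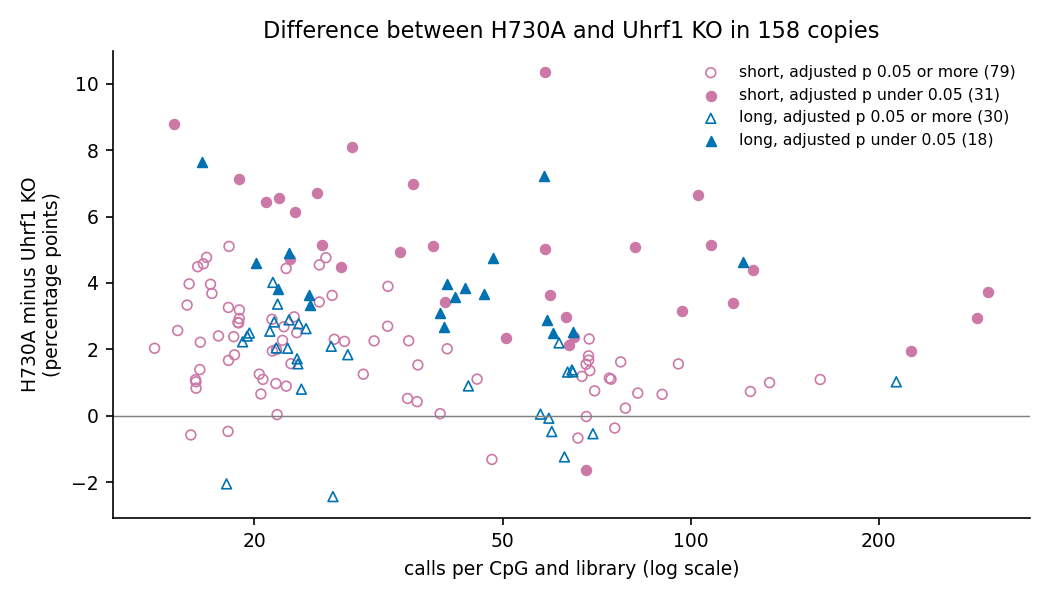
Difference in methylation level between H730A and Uhrf1 KO (vertical axis, percentage points) against calls per CpG and library (horizontal axis, log scale) for the 158 short and long copies. Filled symbols passed an adjusted p of 0.05 (31 short and 18 long copies). Most copies lie above 0 at any depth, and the called share rises with the number of calls.

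The difference between H730A and Uhrf1 KO was not the same in all kinds of copy, grouped by where they started and ended. In copies that ended before position 150 its median was 3.15 points and 15 of 43 were higher, against 1.67 points and 13 of 56 in copies that started after position 8. It was 2.72 points in the 30 long copies that started at position 1, of which 12 were higher. In the 7 long copies with an extra downstream CpG it was 0.0484 points, 4 of the 7 lay above 0 and 1 was called higher. It was 2.93 points in the 11 short copies that started after position 8 and also ended before position 150. The 6 long copies with a shifted last CpG had 2.70 points and the 5 with another upstream CpG 1.38 points. These groups are small, and their differences from each other were not tested.

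The largest differences in favour of H730A among short copies were in chr3:8451629-8451770 (10.4 points, adjusted p = 3.07e-05), in chr2:79937670-79937795 inside Pde1a, which encodes a calcium-dependent phosphodiesterase (8.80 points, adjusted p = 0.00726), and in chr6:107103119-107103241 (8.09 points, adjusted p = 0.000136; quasi-binomial model for all 3). In the last of these Uhrf1 KO gave 3.23, 2.78, 1.94 and 0.926% and H730A 9.68, 7.53, 11.6 and 12.2%. The groups did not overlap. Among long copies they were chr13:106650317-106650471 (7.63 points), chr14:44067640-44067787 (7.23 points) and chr6:21394118-21394267 inside Kcnd2, a gene for a voltage-gated potassium channel (4.89 points). In Kcnd2 the adjusted p of 0.0176 rose to 0.0507 without Uhrf1 KO replicate 4 and to 0.0814 without H730A replicate 3 (quasi-binomial model).

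A single short copy was called in the other direction. In chr10:106391417-106391542 (mm10, plus strand, 125 bp, outside genes) Uhrf1 KO gave 3.91, 4.47, 3.43 and 5.03% and H730A 2.25, 3.00, 3.08 and 1.95%. The groups did not overlap, and the difference was -1.62 points (quasi-binomial model, adjusted p = 0.0385). The call was lost without replicate 1, 2 or 4 of Uhrf1 KO (adjusted p = 0.0612, 0.0839 and 0.118) and without replicate 1 or 4 of H730A (0.0723 and 0.0800). A neighbouring short copy on the same strand, chr10:106390993-106391118, also had a lower mean in H730A, 3.32% ± 0.214 against 3.94% ± 0.485 in Uhrf1 KO (SD, n = 4).

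F46A was not called different from Uhrf1 KO in any single copy. None of the 110 short or 48 long copies was called in either direction (quasi-binomial model; 0.0% of all copies were higher and 0.0% lower), 6 of the 158 had an unadjusted p under 0.05, and 9 were called when Fisher's exact test was run on sums of calls. Without F46A replicate 3 the model called 2. The median difference was 0.355 points in short and 0.198 points in long copies, against 0.442 points over all copies. A missing call does not show that the genotypes are alike.

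Against H730A, F46A was lower in 14 short and 3 long copies and higher in 0 (quasi-binomial model, adjusted p under 0.05), where 27.4% of all copies were lower. The count of 17 depended on single libraries. It was 11, 10 and 7 without replicate 1, 2 or 3 of H730A, 6, 7 and 5 without replicate 1, 2 or 3 of F46A, and 28 without F46A replicate 4. The median difference was -2.38 points in short and -1.91 points in long copies, close to -2.13 over all copies. The copy chr3:8451629-8451770 had the largest difference, -9.22 points (adjusted p = 0.00256), followed by chr6:107103119-107103241 with -7.23 points (adjusted p = 0.00721; quasi-binomial model for both).

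The amplicon was not methylated evenly, and the outline was alike in short, long and common-span copies. In wtJ1 position 25 was among the lowest, at 11.1% in short and 9.95% in long copies. Positions 49 and 113 were among the highest, at 31.1 and 30.97% in short copies and 27.6 and 29.4% in long copies. Uhrf1 KO nearly emptied positions 8 and 34, to 1.17 and 0.908% in short copies and 1.11 and 1.03% in long copies. At position 90 it kept 11.5 and 10.4%. The positions the knockout emptied and those where it kept most were therefore shared by both classes.

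H730A differed from Uhrf1 KO in this profile rather than by an even shift. At position 113 it stood at 13.9% in short and 13.1% in long copies, against 3.36 and 2.71% in Uhrf1 KO. At position 90 the order turned, with 8.68% in short and 8.78% in long copies against 11.5 and 10.4%. F46A lay in between at position 113, at 6.95 and 6.08%. A copy that lacks position 8, 34, 65 or 113 lacks positions at which H730A and Uhrf1 KO differed most.

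**Figure D5:**
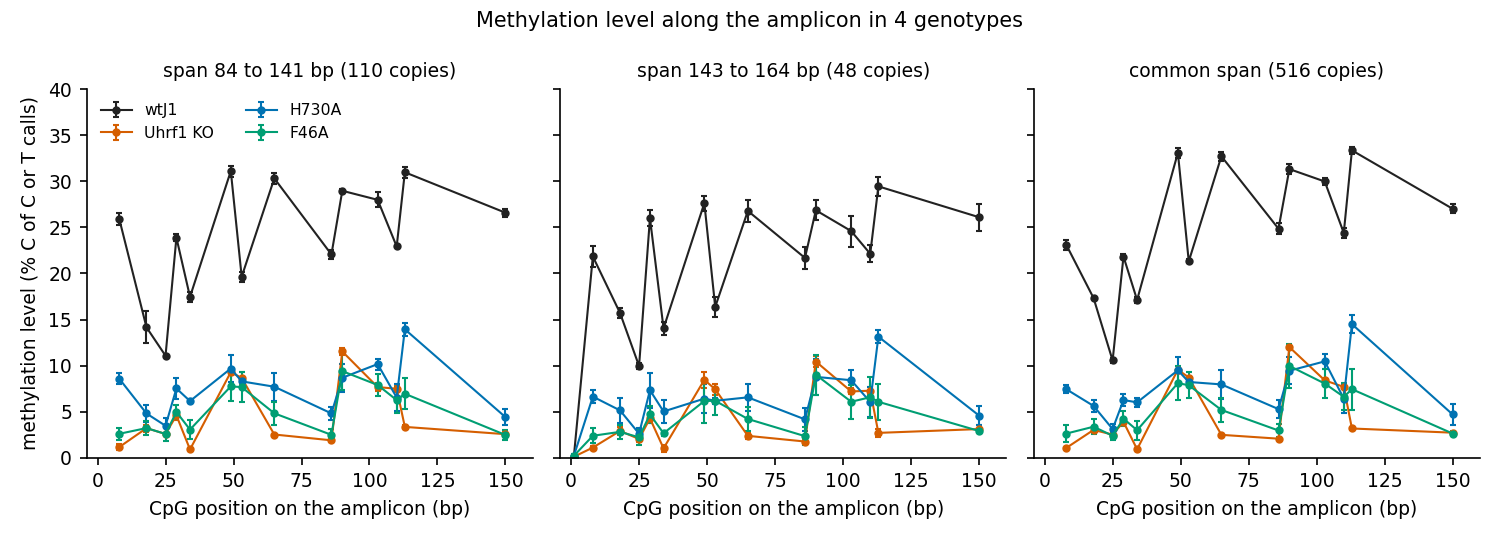
Methylation level (vertical axis, % C of C or T calls, mean ± SD over libraries) at each CpG position of the amplicon (horizontal axis, bp) for short, long and common-span copies in 4 genotypes. The 3 panels have the same outline: Uhrf1 KO is near 1% at positions 8 and 34, H730A peaks at position 113 (13.1 to 14.5%), and position 1 of long copies is near 0 in every genotype.

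Site by site, 1082 of 1229 short and 506 of 594 long CpG sites passed as lower in Uhrf1 KO and none as higher, out of 10185 sites tested (quasi-binomial model, adjusted p under 0.05), against 94.2% of all sites. In H730A 1014 short and 483 long sites were lower, where 91.4% of all sites were. In F46A 1070 short and 499 long sites were lower, where 94.5% of all were. The shares are below the background in both classes, which were read more thinly. The part of coverage in this was not tested. At position 1, where wtJ1 itself gave nearly no C calls, 0 of 30 long sites were called lower in any mutant. The largest site difference in Uhrf1 KO within the named rule was at position 150 of chr3:8451629-8451770, from a mean of 57.8% in wtJ1 to 4.72% ± 2.32 (SD, n = 4).

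Between H730A and Uhrf1 KO 157 short and 59 long sites were higher in H730A and 4 short and 2 long sites lower (quasi-binomial model, adjusted p under 0.05), where 21.4% of all sites were higher and 0.785% lower. At position 113, 58 of 101 short and 25 of 42 long sites were higher. At position 8 it was 20 of 43 short and 14 of 46 long sites, at position 34 31 of 81 and 3 of 16, and at position 65 23 of 104 and 6 of 48. At position 90, 3 short and 1 long site were lower. Among sites with at least 30 calls in every library and no overlap, the largest difference was at position 113 of a short copy, chrX:23535698, where Uhrf1 KO gave 9.84, 16.9, 6.85 and 8.33% and H730A 39.5, 38.9, 40.0 and 40.0%. F46A lay between, at 21.8, 26.7, 23.9 and 27.3%. The total of 222 sites became 147 without Uhrf1 KO replicate 4 and 140 without H730A replicate 3. F46A differed from Uhrf1 KO at 0 sites (0.0% of all sites in either direction), with 136 at an unadjusted p under 0.05 and 28 called by Fisher's exact test of summed calls. F46A was lower than H730A at 10 short and 3 long sites and higher at 0, where 2.39% of all sites were lower and 0.00982% higher, and this total of 13 fell to between 0 and 6 when any single library was left out.

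Most CpGs that made copies long gave almost no C calls in any genotype. Whether these outermost positions lie in a PCR primer, or are CpGs in the DNA of these cells, was not tested. At position 1, pooled over the 30 long copies that hold it, 3 of 3204 calls were C in wtJ1, or 0.0936% (95% exact binomial interval 0.0193 to 0.273%). Uhrf1 KO had 4 C among 3549 calls, H730A 6 among 3233 and F46A 7 among 3128. Position 1 thus gave nearly no C calls in all 4 genotypes, while position 8, only 7 bp away, stood at 21.8% in wtJ1. The same held after position 150. At the 7 downstream CpGs of the 7 copies that hold one, 0 of 1320 calls were C in wtJ1, which allows a level of up to 0.227% by a floor of 3 counts and up to 0.279% by the exact binomial interval, while Uhrf1 KO had 1 of 1528, H730A 1 of 1172 and F46A 1 of 1190. CpGs shifted by 1 or 2 bp from position 150, which set the span of 6 long copies, had levels close to those of position 150. They stood at 23.3% ± 1.88 (SD, n = 3) in wtJ1, and Uhrf1 KO had 1.97% ± 0.619 (SD, n = 4). The span-setting CpGs therefore fell into a kind with almost no C calls and a methylated kind.

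Of the 5 long copies that started at another upstream CpG, that CpG gave few or no C calls in 2. It was highly methylated in 1 and of middle level in 2. In Dgkb it stood at 0.387% ± 0.349 (SD, n = 3) in wtJ1, and in chr14:44067640-44067787 at 0 in every library. At chr6:118215687 and chrX:129910294 it stood at 17.6% ± 4.40 and 16.4% ± 6.23 (SD, n = 3) in wtJ1, and Uhrf1 KO had 1.24% ± 1.00 and 2.71% ± 1.94 (SD, n = 4). These 2 CpGs match position 8 in spacing, so they need not be extra CpGs. Position 8 itself stood at 21.8% in wtJ1 and 1.11% in Uhrf1 KO in long copies. In chr10:112587346-112587493 the first CpG lay at position 3 and stood at 64.0% ± 9.97 (SD, n = 3) in wtJ1. There Uhrf1 KO had 79.1% ± 16.1, H730A 85.1% ± 6.17 and F46A 76.5% ± 11.2 (SD, n = 4). This site was the only member site called higher in a mutant than in wtJ1, which was in H730A (quasi-binomial model, adjusted p = 0.0105). Of all sites, 0.0196% were called higher in H730A, and this site had 12 to 31 calls per library. In Uhrf1 KO and F46A the adjusted p was 0.184 and 0.0579. This site was singled out after its values were seen.

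Long copies lay below common-span copies in 16 of 16 libraries, by 4.32 points in wtJ1 and 0.813 points in Uhrf1 KO. Without position 1 the difference in wtJ1 was -3.63 points. When the 14 other template positions were weighted equally in each class it was -2.77 points in wtJ1 and -0.438 points in Uhrf1 KO, still below 0 in 16 of 16 libraries. The 26 long copies that share a pattern stood at 23.7% ± 0.343 (SD, n = 3) in wtJ1, and at 25.6% ± 0.382 without position 1, beside 25.6% ± 0.396 for common-span copies. Their levels per copy ran from 19.3 to 31.01%. The shared pattern lacks positions 25, 34 and 49, which stood at 10.6, 17.1 and 33.1% in common-span copies of wtJ1. Its level was not weighted by position, so the 2 levels of 25.6% rest on unlike sets of positions. The other kinds of long copy were lower or uneven: 17.4% ± 1.25 with an extra downstream CpG, 18.2% ± 1.63 with another upstream CpG and 24.5% ± 1.07 with a shifted last CpG (SD, n = 3). Long copies inside genes stood at 19.2% ± 0.785 and those outside at 23.5% ± 0.534 in wtJ1 (SD, n = 3), and the deepest copy lay in a gene.

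Short copies stayed close to common-span copies. They lay 1.14 points below them in wtJ1, and the mean difference was 0.149 points for Uhrf1 KO, 0.0394 for H730A and -0.000361 for F46A, with 8 of 16 libraries above and 8 below. With the 14 positions weighted equally the difference was -1.07 points for wtJ1, -0.0590 for Uhrf1 KO, -0.0132 for H730A and -0.165 for F46A, and 13 of 16 libraries lay below. Within the class the level differed with the kind of end. Copies whose missing end CpG was listed but thinly read stood at 26.8% ± 0.111 in wtJ1 (SD, n = 3). Those with no CpG listed at the end position, shifted ends included, stood at 22.4% ± 0.316 in wtJ1 (SD, n = 3). In Uhrf1 KO these kinds, in this order, were at 5.39% ± 0.219 and 5.08% ± 0.0642 (SD, n = 4). In H730A they were at 8.54% ± 1.15 and 7.08% ± 0.628 (SD, n = 4). Copies of 105 bp stood at 26.9% ± 0.0758 and those of 132 bp at 19.7% ± 0.620 in wtJ1 (SD, n = 3). Next to the excluded span, the 9 copies of 141 bp had 24.9% and the 3 of 143 bp 19.4%, against 25.6% in the 516 copies of the common span.

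Several copies lay side by side. Within 1000 bp on 1 strand, 29 of the 158 copies formed 13 groups of 2 or more. Inside Kcnab1, which encodes a potassium channel subunit, 4 long copies of 149 bp lay between chr3:65195750 and 65197187 (mm10, minus strand), where the first stood at 28.03% ± 1.18 and the others at 24.8% ± 0.996, 24.1% ± 0.819 and 23.5% ± 1.91 in wtJ1 (SD, n = 3). In Uhrf1 KO they stood at 5.25, 5.21, 5.11 and 4.53%. On chromosome 9 the neighbours chr9:80956136, chr9:80956597 and chr9:80957021 were all high in wtJ1, at 37.5, 37.5 and 36.8%. On the X chromosome chrX:91843169 and chrX:91843842 were both low, at 15.2 and 15.0%. A short copy of 105 bp and a long copy of 149 bp in Zfp442, a zinc finger gene, stood at 22.2% ± 4.85 and 23.6% ± 4.27 in wtJ1 (SD, n = 3), so the span alone did not separate neighbours there. The mixed pairs in Lsamp, a gene for a neuronal adhesion molecule, and in Unc5c, a gene for a netrin receptor, had long and short copies at 19.3 and 25.1% and at 23.9 and 24.4%. On chromosome 17 the long copy was the higher one, with chr17:69324310 (short) at 19.9% ± 2.33 and chr17:69324734 (long) at 24.0% ± 0.809 (SD, n = 3). In another mixed pair, on chromosome 1, the neighbours differed more: chr1:75714174 (long) stood at 19.5% ± 0.803 and chr1:75715059 (short) at 34.7% ± 2.33 in wtJ1 (SD, n = 3).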

How the data were processed

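Each deposited file lists the CpG sites of 1 library by position and strand. Per the file headers it holds counts of C calls and of C or T calls, an effective C or T coverage (a signal) and the methylated fraction with its bounds. The submitters' processing notes name Trim Galore 0.3.1, BSMAP 2.90, methylKit and the build mm10, with no roles. How reads that match several copies were placed is not stated there.

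The deposited counts were used unchanged. For each comparison a quasi-binomial model was fitted to every copy and every site of its 8 libraries. The Pearson dispersion was moderated by limma 3.58.1 in R 4.3.3 with a floor of 1, and p-values were adjusted by Benjamini-Hochberg over all copies or all sites, with a threshold of 0.05. Levels were computed in Python 3.11.15. The template is the most common CpG pattern among common-span copies, found in 125 of them, with further positions that recurred in many copies.

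Named copies were the 4 with the most calls in each class, those with the largest and smallest called difference from wtJ1 among copies with at least 100 calls in every library compared, up to 3 called copies in each direction between mutants, and the extreme spans. Named sites had at least 30 calls in every library and no overlap between groups. Members and lists were chosen with earlier results of these data known, and neighbouring copies and downstream CpGs were named after their values were seen. The alternatives were a replicate block, each library left out, limma on logits (offset 0.5), Fisher's exact test, a minimum of 30 calls, a joint fit of 16 libraries, template sites only, other membership limits, unweighted means and each strand alone.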

Additional observations from a re-analysis of the deposited data

Results flagged for a closer look

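In 5 of 78 groups of 4 libraries tested over the named copies, 1 library lay apart from the other 3 by Dixon's criterion; chance gives about 1 in 20. In the copy chr4:122713556, H730A replicate 3 was at 9.58%, and the other libraries began at 8.04%. In chr3:8451629, F46A replicate 2 was at 11.3% above a lowest value of 6.70%. In chr9:98251241, H730A replicate 3 was at 13.5% above a lowest value of 8.41%. In chr14:13694446, Uhrf1 KO replicate 1 was at 5.64% above 3.67%, and H730A replicate 3 at 7.09% above 3.16%. The same library, H730A replicate 3, was the highest in 3 of the 5, and it was also the highest H730A library over all short and all long copies.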

How the results depend on the processing

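The median short or long copy had 27.7 or 27.5 calls per CpG and library, against 68.6 in common-span copies; the part of depth in the calls between mutants was not tested. The replicate numbers do not pair the libraries: 1 of 24 correlations between libraries of the same number, which ran from -0.0916 to 0.115, was over 0.1, and 4 of 16 libraries correlated best with their own number. With the replicate block, F46A against H730A gave 3 copies and 0 sites and H730A against Uhrf1 KO 53 copies and 0 sites; the block moved no other count by over 1.5 times. Under it the adjusted p of the named copy chr6:107103119 (F46A against H730A) was 0.0520 and that of the named site chrX:23535698 (H730A against Uhrf1 KO) 0.0636. Why the site calls were lost was not tested.

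With a minimum of 30 calls fewer copies and sites were tested, and all 60 copies left were lower in each mutant; sites lower than wtJ1 numbered 661 (Uhrf1 KO), 659 (H730A) and 656 (F46A), H730A against Uhrf1 KO gave 26 copies, and F46A gave 12 sites against Uhrf1 KO and 40 against H730A. Fisher's exact test gave 108 copies and 338 sites for H730A against Uhrf1 KO, 9 and 28 for F46A against Uhrf1 KO, and 98 and 120 for F46A against H730A. A joint fit of 16 libraries gave 29 copies and 53 sites for F46A against H730A and 8 sites for F46A against Uhrf1 KO. Logit values gave 345 sites for H730A against Uhrf1 KO and 1 for F46A against H730A, which template sites alone put at 21.

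The wtJ1 and Uhrf1 KO levels of short copies were 25.6 and 5.58% as a mean of sites, 25.6 and 5.57% as a mean of copies, 22.7 and 5.02% at 30 calls, and 23.3 and 5.06% with gaps of at most 100 bp. For short copies in wtJ1, membership at 5 calls gave 24.8%, membership at 20 calls 24.0%, template sites 24.6%, the plus strand 24.1% and the minus strand 24.9%. Long copies had 22.6 and 4.49% as a mean of sites, 22.8 and 4.53% as a mean of copies, 20.4 and 4.11% at 30 calls, 19.6 and 3.98% with membership at 20 calls, and 21.9 and 4.42% at template sites. For long copies in wtJ1 the plus strand gave 20.7% and the minus strand 21.9%. Long copies without the deepest copy had 22.2 and 4.40%. As alternatives chosen after seeing the data, short copies without a thinly read end had 22.6 and 5.08%, and long copies without position 1 21.9 and 4.38%.

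With single libraries left out, copies lower than wtJ1 ranged from 158 to 158 (Uhrf1 KO), 156 to 158 (H730A) and 157 to 158 (F46A), and sites from 1526 to 1556, 1354 to 1435 and 1503 to 1553. H730A against Uhrf1 KO ranged from 36 to 61 copies and 140 to 177 sites, F46A against Uhrf1 KO from 0 to 2 copies and 0 to 0 sites, and F46A against H730A from 5 to 28 copies and 0 to 6 sites. Levels in wtJ1, Uhrf1 KO, H730A and F46A ranged over 24.3 to 24.5, 5.16 to 5.26, 7.38 to 8.04 and 5.17 to 5.87% in short copies, and over 21.0 to 21.5, 4.23 to 4.26, 5.92 to 6.71 and 3.98 to 4.77% in long copies. Of 1407 values of named copies and sites under an alternative, 64 lost and 25 gained the call, and 0 changed direction.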
